A study of Mus musculus with 42 samples.

Results

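The 10 genes described here are perforin, Prf1, and the granzymes Gzma, Gzmb, Gzmc, Gzmd, Gzme, Gzmf, Gzmg, Gzmk and Gzmm, chosen by name among the 36604 genes of the joint table and the 54752 of the lymph node table. Each of the 10 has a row in both tables. The mice were C57BL/6 wild type, and the study followed tissue repair and immune responses after knee replacement surgery. Joint soft tissue gave 24 libraries, 4 each for RST day 3, 7, 14, 21 and 35 and for LST day 35. Lymph nodes gave 18 libraries, 3 each for Implant, ContraImplant and NoImplant nodes on day 7 and on day 14. What RST and LST stand for is not written out in the labels, and LST was taken on day 35 only, so an earlier RST day differs from LST in label and in day. ContraImplant nodes came from the other side of the same mice as the Implant nodes, and NoImplant nodes from other mice. The labels of the counts mark Implant nodes as Surgery and ContraImplant and NoImplant nodes as NoSurgery. Effects of surgery and of implant on the Implant nodes therefore cannot be told apart. No label ties a joint replicate to its own animal, so p-values in joint tissue rest on the spread between these libraries, which may be technical.

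Granzymes are serine proteases that cytotoxic T cells and natural killer (NK) cells store in granules and release onto a target cell. Perforin makes the pores through which they enter. Granzymes A and B are the best studied, and granzyme B cuts caspases and Bid to start cell death. Granzymes C to G lie beside granzyme B on mouse chromosome 14 and are known from strongly activated mouse killer cells and from NK cells of the pregnant uterus. Granzymes A and K form a pair of neighbours on chromosome 13, and granzyme M is a protease of NK cells with its own gene on chromosome 10.

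On mm10 (GENCODE M21), Prf1 lies at chr10:61297833-61304680 and Gzmm at chr10:79689020-79695261, both on the plus strand. Gzma lies at chr13:113093825-113100981 and Gzmk at chr13:113171608-113225908, both on the minus strand. The span of Gzmk overlaps Esm1, which is read from the opposite strand. The other 6 lie on the minus strand of chromosome 14 in the order Gzme (chr14:56117626-56120625), Gzmd (chr14:56129556-56132608), Gzmg (chr14:56156582-56159579), Gzmf (chr14:56205263-56211417), Gzmc (chr14:56231441-56234656) and Gzmb (chr14:56258838-56262260). Gzmf overlaps the antisense gene Gm4022. Whether counting used strand is not given in the sources used here. Reads of Gzmk and Esm1, or of Gzmf and Gm4022, might therefore not be separated.

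Gzmd to Gzmg are near-identical copies. Over the aligned transcripts Gzmd shared 94.8% of bases with Gzme, 90.5% with Gzmg and 87.6% with Gzmf, against 76.8% between Gzmc and Gzmd. Of all stretches of 50 bases in the transcript, 21.9% of those of Gzmd, 20.6% of Gzme, 19.8% of Gzmg, 7.36% of Gzmf and 4.14% of Gzmc also occurred in another gene. For Gzma, Gzmb, Gzmk, Gzmm and Prf1 the share was 0. How the authors counted reads that map to several places is not given, so the split of reads among Gzmd to Gzmg is uncertain, and their sum is given beside the single rows.

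The copies also resemble each other upstream of their start sites, and the promoters of Gzmc to Gzmg are shown because 3 of these genes were read on RST day 7 and the others hardly at all. The Gzmd and Gzme windows of 300 bases around the RefSeq start site were 94% identical, those of Gzmd and Gzmg 90.1% and those of Gzmc and Gzmd 86.1%. Each sequence below covers bases -140 to -21 from the start site on the gene's strand, from RefSeq (GRCm38.p6), and the capitals mark the 8 bases that follow the shared run aagtaatg. In Gzmc, Gzmf and Gzmg these 8 bases spell the cyclic-AMP response element (CRE).
Gzme (chr14:56120646-56120765, minus strand): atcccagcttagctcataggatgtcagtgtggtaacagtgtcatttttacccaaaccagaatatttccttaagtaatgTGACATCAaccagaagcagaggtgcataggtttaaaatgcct
Gzmd (chr14:56132614-56132733, minus strand): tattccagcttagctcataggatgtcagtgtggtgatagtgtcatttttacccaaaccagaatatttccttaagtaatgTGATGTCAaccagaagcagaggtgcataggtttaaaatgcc
Gzmg (chr14:56159600-56159719, minus strand): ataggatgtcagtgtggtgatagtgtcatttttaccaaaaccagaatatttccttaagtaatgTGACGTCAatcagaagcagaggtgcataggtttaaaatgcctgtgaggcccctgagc
Gzmf (chr14:56211428-56211547, minus strand): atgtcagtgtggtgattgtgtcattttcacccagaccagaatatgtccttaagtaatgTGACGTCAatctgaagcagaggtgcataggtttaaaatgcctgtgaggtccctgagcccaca
Gzmc (chr14:56234678-56234797, minus strand): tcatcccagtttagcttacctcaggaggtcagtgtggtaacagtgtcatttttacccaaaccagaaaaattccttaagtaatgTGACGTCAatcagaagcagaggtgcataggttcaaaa

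Counted from 1 at the 5′ end of the CRE letters, the Gzmd promoter differs by C4T and the Gzme promoter by G5A. The CRE letters TGACGTCA, which read the same on both strands, occurred in 1.79% of the 32851 promoter windows of 300 bases in the RefSeq table and in 3 of the 11 windows of the members. Gzmm has 2 windows there and each other member has 1. The AP-1 letters TGANTCA occurred on either strand in 7.81% of all windows and in 1 of the 11, that of Gzmb. The RUNX letters ACCACA occurred on either strand in 16.8% of all windows and in 9 of the 11. The alike windows of Gzmc to Gzmg hold all 3 CRE matches and each has a RUNX match. The 11 windows are therefore not independent, and their counts are no test of enrichment. The CRE letters do not contain the AP-1 letters. A match is a description of the letters only. Of the genes with the exact CRE letters, Gzmc was read on RST day 7 while Gzmf and Gzmg were nearly absent, and Gzmd and Gzme, which lack them, were read there.

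Total counts ran from 17842090 to 28024003 per joint library and from 22041900 to 44371001 per node library. Levels are CPM, counts scaled to library size with edgeR's TMM factors, which ran from 0.808 to 1.367 in joint tissue and from 0.948 to 1.023 in nodes. The joint libraries matched their label in that 10 genes of mature skeletal muscle were all detected, at a summed 203899 to 223712 CPM in LST day 35. Pan-leukocyte genes summed to 171 to 251 CPM on RST day 7 and to 18.3 to 24.9 CPM in LST day 35. In nodes, 6 B cell genes summed to 2182 to 4320 CPM over the 18 libraries, and the muscle genes to 17.7 to 28 CPM on day 14 but to as much as 1475 CPM on day 7. Tests used edgeR's quasi-likelihood test over all genes of a table, with 0.05 as the threshold for the p adjusted by Benjamini-Hochberg. Of the 10 members, 6 could be tested in each table: Gzma, Gzmb, Gzmc, Gzmd, Gzme and Gzmm in joint tissue, and Gzma, Gzmb, Gzmc, Gzmk, Gzmm and Prf1 in nodes. The others fell below the low-count filter. In joint tissue Gzmb, Gzmc and Gzmd passed it only through their RST day 7 libraries, so their tests of day 7 are on genes that this group let in. Without the filter their RST day 7 calls were also made.

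In joint soft tissue Gzmc, Gzmd and Gzme of the chromosome 14 cluster were highest on RST day 7. Gzme, a granzyme known in the mouse and close to Gzmd, had 100, 100, 140 and 269 counts in the 4 RST day 7 libraries, against 0, 0, 1 and 0 counts in the LST libraries. As CPM this was 3.92, 3.18, 4.58 and 9.68 on RST day 7. All 4 day 7 libraries lay above every other joint library. On RST day 3 Gzme had 2, 4, 5 and 2 counts, on RST day 14 17, 23, 2 and 13 counts, and on RST day 21 0, 23, 1 and 0 counts. On RST day 35 it had 0 counts in all 4 libraries, which allows up to 0.0375 CPM over the group. With 609 counts over the RST day 7 libraries and 1 over the LST libraries, Gzme was 455-fold higher on RST day 7 (95% counting interval 81.4 to 18020, edgeR adjusted p = 4.49e-07). Intervals and limits of this kind cover counting error only.

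Gzmd, its nearest copy, had 48, 30, 45 and 106 counts on RST day 7, against 0 counts in every LST library. Against a floor of 3 counts over the LST group, Gzmd was at least 57.1-fold higher in these libraries (edgeR adjusted p = 2.94e-06). On RST day 3 it had 2, 1, 0 and 0 counts, on RST day 14 4, 9, 1 and 3 counts, on RST day 21 0, 8, 0 and 1 counts, and on RST day 35 none. Day 7 again stood above every other library.

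Gzmc, a granzyme that kills target cells by a route independent of caspases in mouse studies, had 47, 47, 47 and 102 counts on RST day 7, against 0, 0, 0 and 1 in the LST libraries. It was 182-fold higher on RST day 7 (95% counting interval 32.3 to 7208, edgeR adjusted p = 1.5e-05). On RST day 3 it had 1, 2, 1 and 0 counts, on RST day 14 17, 20, 1 and 5 counts, on RST day 21 0, 26, 1 and 1 counts, and on RST day 35 none. The library with the highest Gzme, Gzmd and Gzmc on RST day 7 was replicate 4 for each of them, and on RST day 21 it was replicate 2 for each.

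Gzmb, granzyme B itself, had 14, 25, 30 and 59 counts on RST day 7, against 0, 0, 1 and 2 in the LST libraries. It was 31.9-fold higher on RST day 7 (95% counting interval 10.7 to 157, edgeR adjusted p = 3.40e-05). Its lowest and highest RST libraries were at 0.0854 and 0.716 CPM on day 3, at 0.549 and 2.12 on day 7, at 0.0899 and 0.483 on day 14, at 0.0495 and 0.605 on day 21, and at 0 and 0.287 on day 35. The day 7 range overlaps those of day 3 and day 21.

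Gzmg and Gzmf were close to 0. Gzmg had 2, 4, 1 and 3 counts on RST day 7, 1 count in all on RST day 14 and none in the other 19 joint libraries, LST included. Against the same floor of 3 counts, the RST day 7 group was at least 2.49-fold higher than LST. Gzmf had 1 count in each of 4 joint libraries and 0 in the other 20. With Gzmd to Gzmg summed into 1 row, the RST day 7 rise over LST had an edgeR adjusted p of 2.95e-07. This call on the sum does not depend on how reads were split within it. Gzme gave most of the summed counts, so the sum cannot decide whether the single Gzmd call depends on the split. Gzmd and Gzme also share stretches of 50 bases with Gzmc and Gzmn, which the sum leaves out.

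**Figure D1:**
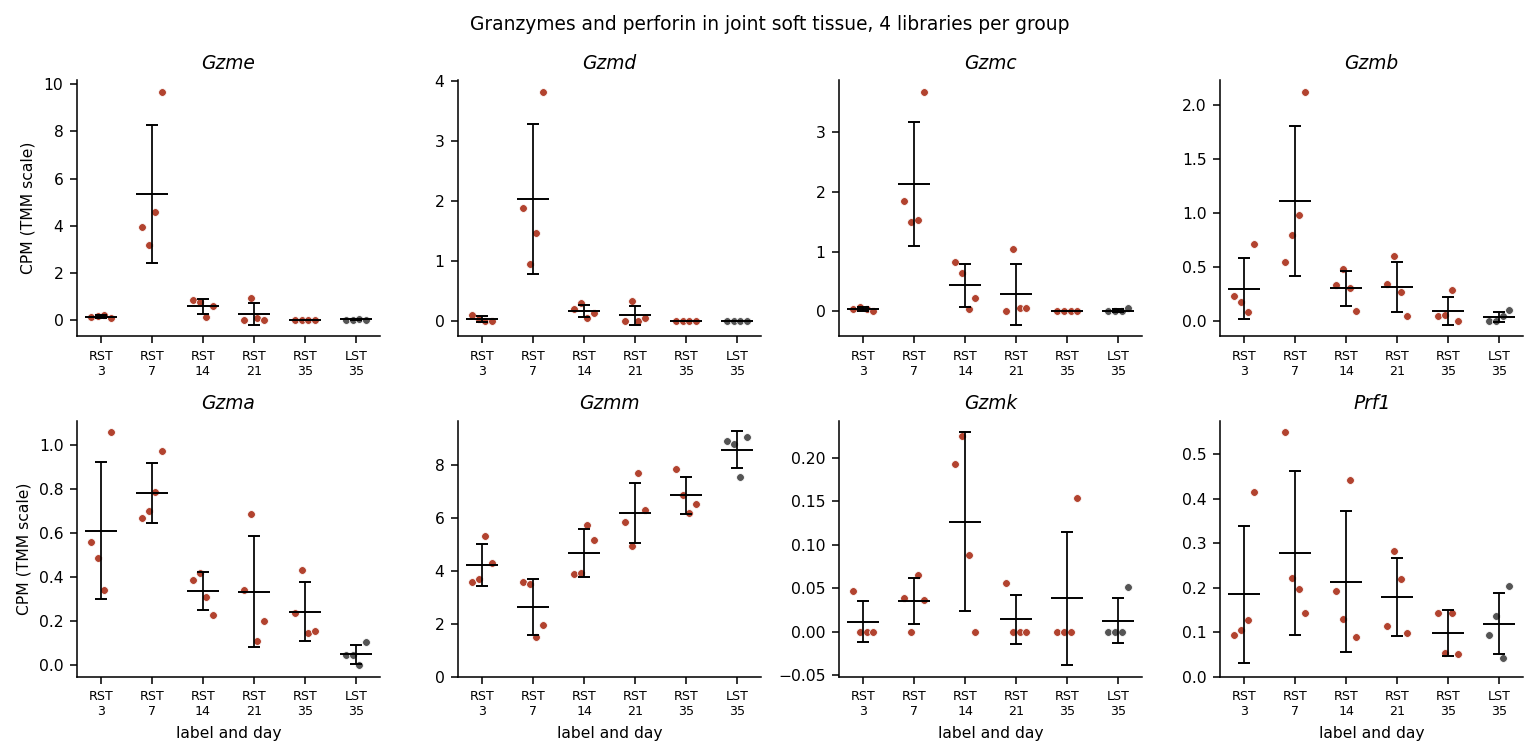
CPM on the TMM scale (vertical axis, each panel with its own scale) of 8 members in the 24 joint soft tissue libraries, by label and day. Points are single libraries, black bars the mean and SD of 4. Gzme, Gzmd and Gzmc peak on RST day 7, with replicate 4 highest, while Gzmm is lowest on day 7 and highest in LST.

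Gzma, granzyme A, moved over a smaller range. It had 0.667, 0.699, 0.785 and 0.972 CPM on RST day 7, against 0.0471, 0.0456, 0 and 0.102 CPM in LST day 35. Its mean was 0.609 ± 0.31 CPM on RST day 3, 0.781 ± 0.137 on day 7, 0.335 ± 0.0865 on day 14, 0.333 ± 0.253 on day 21 and 0.241 ± 0.133 on day 35, and 0.0487 ± 0.0418 in LST day 35 (SD, n = 4 each). Every RST library lay above every LST library. On the log2 scale it was 3.92 ± 0.59 (SE) higher on RST day 7 (edgeR adjusted p = 3.20e-06).

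Gzmm ran the other way. It had 3.57, 3.49, 1.5 and 1.94 CPM on RST day 7, against 8.90, 8.79, 7.53 and 9.05 CPM in LST day 35. Its mean was 4.22 ± 0.785 CPM on RST day 3, 2.63 ± 1.06 on day 7, 4.67 ± 0.919 on day 14, 6.18 ± 1.15 on day 21 and 6.84 ± 0.715 on day 35, and 8.57 ± 0.698 in LST day 35 (SD, n = 4 each). No library of RST day 3, 7 or 14 reached the lowest LST library. On the log2 scale Gzmm was lower on RST day 7 than in LST, with a difference of -1.71 ± 0.21 (SE, edgeR's adjusted p = 2.48e-07). Scaled by the total count alone, Gzmm averaged 3.32 CPM on RST day 7 and 7.14 CPM in LST day 35.

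Prf1 was read in all 24 joint libraries but at 1 to 14 counts each, below the filter. It averaged 0.185 ± 0.154 CPM on RST day 3, 0.278 ± 0.184 on day 7, 0.214 ± 0.159 on day 14, 0.178 ± 0.0875 on day 21 and 0.0977 ± 0.0521 on day 35, and 0.119 ± 0.0685 in LST day 35 (SD, n = 4 each). Its ranges overlap between these groups, except that the lowest RST day 7 library, at 0.144 CPM, lay just above the highest RST day 35 library, at 0.143 CPM. No difference was tested at this depth. Gzmk had 0 to 7 counts per joint library. Its 13 counts on RST day 14, against 1 in LST, made an 11.6-fold ratio with a 95% counting interval of 1.74 to 493. Those 13 counts lay in 3 of the 4 RST day 14 libraries.

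Of the 6 tested members, 5 were higher and 1 was lower on RST day 7 than in LST. Of all 16149 genes tested, 41% rose and 35.1% fell in that comparison. Since Gzmb, Gzmc and Gzmd entered through RST day 7, the count over tested members is a description. All RST comparisons below share the same 4 LST libraries.

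On RST day 3, Gzma and Gzmb were already higher than in LST and Gzmm was lower, against 38.6% of all genes that rose and 30.1% that fell. Gzma had 12, 14, 8 and 28 counts there, against 1, 1, 0 and 2 counts in LST (log2 fold change 3.58 ± 0.62, edgeR adjusted p = 2.43e-05). Gzmb was 8.87-fold higher (95% counting interval 2.77 to 45.4, adjusted p = 0.0171), a call that was lost without RST day 3 replicate 4 (adjusted p = 0.12). Gzme, with 13 counts over the group against 1, had an edgeR adjusted p of 0.149. Gzmm fell by 1.02 ± 0.21 on the log2 scale (adjusted p = 0.000166).

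RST day 7 was also set against RST day 3. On the log2 scale Gzme rose by 5.31 ± 0.72 (edgeR adjusted p = 1.30e-05) and Gzmc by 5.56 ± 0.93 (adjusted p = 0.000106). Gzmd, with 229 counts over the RST day 7 libraries against 3 over the RST day 3 libraries, was 66.5-fold higher (95% counting interval 22.5 to 325, adjusted p = 3.18e-05). Gzmb rose by 1.84 ± 0.58 (adjusted p = 0.0141) and Gzmm fell by 0.68 ± 0.22 on the log2 scale (adjusted p = 0.0153). Of all genes, 18.7% rose and 22.5% fell. Gzma, at 0.34 ± 0.37, did not pass (adjusted p = 0.479). Without RST day 7 replicate 4, the calls of Gzmb (adjusted p = 0.0826) and Gzmm (adjusted p = 0.0572) were lost, and that of Gzmm was also lost without RST day 3 replicate 3 (0.0585) or RST day 7 replicate 3 (0.0658), and with only these groups in the fit (0.0682).

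On RST day 14, 5 of the 6 tested granzymes were lower than on RST day 7 and Gzmm was higher, against 18% of all genes that fell and 20.9% that rose. On the log2 scale, RST day 14 minus RST day 7 was -3.23 ± 0.58 for Gzme (edgeR adjusted p = 0.000397), -3.50 ± 0.61 for Gzmd (adjusted p = 0.000455), -2.26 ± 0.64 for Gzmc, -1.80 ± 0.58 for Gzmb, -1.19 ± 0.41 for Gzma and 0.83 ± 0.22 for Gzmm (adjusted p = 0.00511). Gzmb, Gzmc and Gzmd passed the filter through their RST day 7 libraries, so a lower level on another day is favoured by that choice and the tally is a description. The calls of Gzma and Gzmb were lost, with log2 differences of the same sign, without RST day 7 replicate 4 (Gzma -1.07, edgeR adjusted p = 0.0687, and Gzmb -1.30, adjusted p = 0.101). The same held without RST day 14 replicate 4 (Gzma -1.05, adjusted p = 0.0757, and Gzmb -1.52, adjusted p = 0.0631) and, for Gzma, without RST day 14 replicate 3 (-1.15, adjusted p = 0.0625).

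The levels of RST day 14 were still apart from LST. Gzme was 49.1-fold higher (95% counting interval 8.46 to 1975, edgeR adjusted p = 0.00403), Gzmc 38.4-fold (6.54 to 1552, adjusted p = 0.00895), Gzmb 9.23-fold (2.88 to 47.2, adjusted p = 0.0193) and Gzmd at least 5.06-fold (adjusted p = 0.0207). On the log2 scale Gzma was higher by 2.73 ± 0.68 (adjusted p = 0.00174), and the Gzmm difference was -0.88 ± 0.21 (adjusted p = 0.00116). Of all genes, 33.4% rose and 24.5% fell. Gzmb was not called without RST day 14 replicate 2 (adjusted p = 0.0724), LST replicate 1 (0.0513) or LST replicate 2 (0.0545), nor Gzmd without RST day 14 replicate 2 (0.0677).

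Against LST, RST day 21 kept 3 calls, all higher: Gzma (log2 fold change 2.77 ± 0.69, edgeR adjusted p = 0.0041), Gzmb (9.59-fold, 95% counting interval 2.95 to 49.4, adjusted p = 0.038) and Gzmc (29.8-fold, 4.93 to 1220, adjusted p = 0.0442). Of all genes 21.7% were higher and 5.42% lower. Replicate 2 held 26 of the 28 Gzmc counts of the group, 17 of the 29 Gzma counts and 15 of the 27 Gzmb counts. Without it none of the 3 passed by edgeR. The fitted log2 fold change, which for Gzmb and Gzmc depends on the few LST counts and is no bound, was then 2.08 for Gzma (adjusted p = 0.0587), 2.45 for Gzmb against 3.05 with all libraries (adjusted p = 0.202) and 1.27 for Gzmc against 4.29 (adjusted p = 0.7). The uncalled Gzme and Gzmd also had most of their counts in replicate 2, 23 of 24 and 8 of 9. Without LST replicate 1, 2 or 3, 1 member, Gzma, passed, and without RST day 21 replicate 3, 5 passed. Gzmc was also not called without LST replicate 4 (adjusted p = 0.066), nor Gzmb without RST day 21 replicate 1 (0.0516). For the copies summed, the adjusted p was 0.0406.

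Of the neighbouring later days, RST day 21 against day 14 gave no call among the members (0.737% of all genes changed), with 0 at an unadjusted p below 0.05 and 0 by DESeq2. Without RST day 21 replicate 2, Gzmc and Gzme passed as lower (edgeR adjusted p = 0.0207 and 0.00708). RST day 35 against day 21 gave none either by edgeR (3.96% of all genes changed), with 3 members at an unadjusted p below 0.05 and 2, Gzmc and Gzme, past the threshold by DESeq2. Among all 16149 genes, 3541 had an unadjusted p below 0.05 there. Gzmc had 0 counts on day 35 against 28 on day 21, and Gzme 0 against 24, so that Gzmc was at least 9.23-fold lower and Gzme at least 7.92-fold lower on day 35. Both limits rest on RST day 21 replicate 2. Without it day 21 had 2 counts of Gzmc and 1 of Gzme, under the floor of 3, and no fold can be given.

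RST day 35 and LST day 35, the one pair taken on the same day, gave no call among the members, while 2.92% of all genes were higher and 0.0495% lower. Whether libraries of the same number came from the same mouse is not given, and the test did not pair them. Their deviations from the group means correlated at 0.0829 to 0.191. A block for the replicate number changed no call here. Gzma alone had an unadjusted p below 0.05, as did 2021 of all 16149 genes, and DESeq2 called 0 members. Gzma had 0.237, 0.431, 0.143 and 0.154 CPM on RST day 35, against 0.0471, 0.0456, 0 and 0.102 CPM in LST, without overlap (log2 fold change 2.23 ± 0.74, edgeR adjusted p = 0.122). Gzmb had 1, 1, 6 and 0 counts on RST day 35 against 0, 0, 1 and 2 in LST. For Gzmm the log2 difference was -0.32 ± 0.20 (adjusted p = 0.609). In the test of any change over the 5 RST days, the 6 tested members passed, as did 79.6% of all genes.

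Within the cluster on chromosome 14, the proportions of Gzmc, Gzmd and Gzme were close among the RST day 7 libraries. Of the summed counts of Gzmc, Gzmd and Gzme, Gzme made up 51.3%, 56.5%, 60.3% and 56.4% in replicates 1 to 4, with Wilson 95% intervals from 44.3% at the lowest to 66.4% at the highest. Gzmd made up 16.9% to 24.6% and Gzmc 20.3% to 26.6%. In the 3 RST day 14 libraries with at least 20 such counts, Gzmc made up 44.7%, 38.5% and 23.8%, and in RST day 21 replicate 2 45.6% (33.4% to 58.4%). The share of Gzme in that library was 40.4% (28.6% to 53.3%). The uncertain split of reads among the copies bears on these shares.

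Per length, the order of levels changed with the day. On RST day 7 it was Gzme at 5.83 ± 3.22 CPM per kb of exon, Gzmc at 2.39 ± 1.16, Gzmd at 2.11 ± 1.30, Gzmm at 1.79 ± 0.72, Gzma at 0.776 ± 0.136, Gzmb at 0.774 ± 0.486 and Prf1 at 0.108 ± 0.0711 (SD, n = 4). Gzmc, Gzmd and Gzmm lay within their spread of each other, and so did Gzma and Gzmb. In LST day 35 Gzmm led at 5.82 ± 0.474 CPM per kb, and Gzma followed at 0.0484 ± 0.0416 and Prf1 at 0.0462 ± 0.0265.

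**Figure D2:**
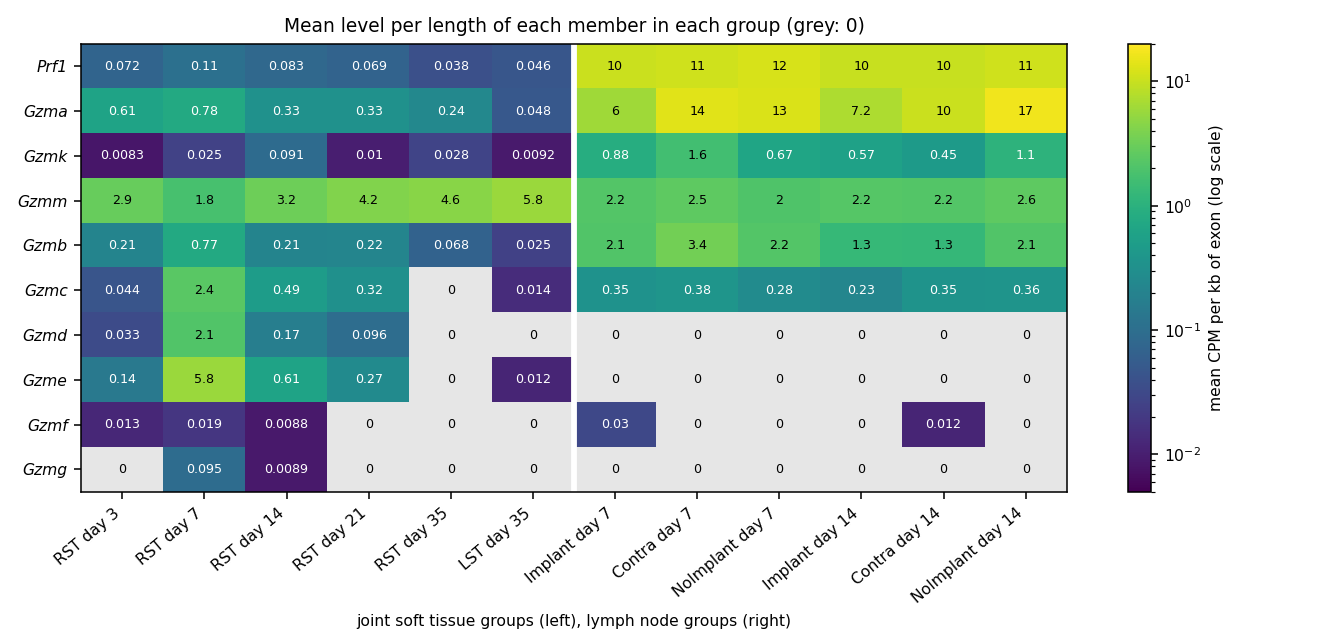
Mean CPM per kb of exon (colour, log scale, with the value printed) of each member in the 6 joint groups (left, 4 libraries each) and the 6 node groups (right, 3 libraries each). Grey cells are groups with 0 counts. Gzmd, Gzme and Gzmg are grey in the 6 node groups, where Prf1 and Gzma lead, while Gzme leads on RST day 7 and Gzmm in the other joint groups.

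Genes whose proteins load, carry or control granzymes were higher on RST day 7 than in LST in most cases. Among all genes tested, 41% were higher and 35.1% lower in that comparison. All 9 genes of granule assembly and granzyme processing rose, with a median log2 fold change of 1.11 against 0.08 over all genes. They include Ctsh (2.59 ± 0.22) and Ctsc (1.23 ± 0.13), cathepsins that trim granzymes into active enzymes, Calr (1.11 ± 0.12), a chaperone found in the granule, and M6pr (0.91 ± 0.11), a receptor that sorts granzymes (edgeR adjusted p from 1.20e-09 to 1.13e-07). Of 9 tested genes of granule exocytosis 8 rose, among them Coro1a (2.74 ± 0.29), Stxbp2 (1.98 ± 0.22), Vamp8 (0.88 ± 0.11) and Stx11 (2.65 ± 0.38). Syt7, named here after its value was seen, fell by 0.80 ± 0.23 on the log2 scale (edgeR adjusted p = 0.00287). The 6 tested serpins of the families that inhibit granzymes and related proteases rose, with Serpinb1a at 3.15 ± 0.26, Serpinb9, the inhibitor of granzyme B, at 1.62 ± 0.20, Serpina3g at 4.87 ± 0.65 and Serpinb6a at 0.90 ± 0.11. Many of these genes are also used by macrophages and other myeloid cells.

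The counts in the next lists can be read against the 41% of all genes that were higher and 35.1% that were lower. Of 6 granzyme substrates, 3 rose and 2 fell. Bid (2.56 ± 0.30) was among those that were higher, and Dffa (-1.33 ± 0.12) and Gsdme (-0.74 ± 0.11) were lower. Of 5 tested death ligands and receptors 4 rose, Ltb (3.34 ± 0.48), Tnfrsf10b (1.36 ± 0.21), Tnf (3.01 ± 0.52) and Fas (0.50 ± 0.17). Of 11 tested transcription factors of cytotoxic lineages 8 rose and 3 fell. Id2 (2.41 ± 0.21), Runx3 (3.87 ± 0.38), Batf (3.48 ± 0.45) and Id3 (1.16 ± 0.16) led, and those that fell, named after their values were seen, were Tbx21 (-1.35 ± 0.36), which encodes T-bet, Bhlhe40 and Irf4. Of 11 tested cytokines and receptors that drive cytotoxic cells 6 rose and 4 fell, with Il2rg (3.51 ± 0.24), Il21r (3.84 ± 0.34) and Il18 (2.89 ± 0.31) higher and Il15 (-1.23 ± 0.19) lower. Of 9 tested genes of the interferon-gamma response 6 rose, Cxcl10 by 4.07 ± 0.52, while Ifng itself averaged 0.0336 CPM on RST day 7 and had 0 counts in LST.

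Markers of the cells that could hold granzymes moved as well, and their part in the granzyme values was not tested. In bulk tissue, fewer cells of a type and less RNA per cell cannot be told apart. The 14 NK cell genes summed to 11.5 to 16.2 CPM on RST day 7 and to 1.87 to 2.40 CPM in LST, where Klra4, Klrc1 and Xcl1 were at 0. All 5 of the 14 that could be tested rose, led by Itga2 (2.27 ± 0.24), Cd244a (3.79 ± 0.47), Klrd1 (4.41 ± 0.61) and Ccl5 (2.94 ± 0.45). The NK receptor gene Ncr1 averaged 0.243 ± 0.078 CPM on RST day 7 and 0.0701 ± 0.048 CPM in LST. The 12 T cell and CD8 genes summed to 8.53 to 13.0 CPM on RST day 7 and to 3.27 to 4.85 CPM in LST, where Cd3d was at 0. Of 8 tested, 4 rose, namely Cd4 (4.10 ± 0.56), Trbc2 (2.71 ± 0.51), Lck (2.95 ± 0.64) and Trbc1 (3.03 ± 0.80). Cd8a averaged 0.301 ± 0.088 CPM on RST day 7 and 0.0473 ± 0.037 CPM in LST.

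The other marker lists were read the same way. The 6 pan-leukocyte genes, 6 of 7 macrophage genes (Cd163 fell) and all 10 cell cycle genes rose, with median log2 fold changes of 3.20, 3.60 and 4.52. Of 6 tested mast cell and basophil genes 2 rose, Kit and Hdc, and of 2 tested neighbours of the Gzmb cluster, Cma1 and Mcpt4, 0 passed by edgeR and 0 had an unadjusted p below 0.05. Of the 7 such neighbours listed in the joint table, Gzmn averaged 0.0741 CPM on RST day 3 and 0.0832 on RST day 7 and had 0 counts in the other joint groups. Of 6 tested plasmacytoid dendritic cell genes 3 rose, of 2 tested gamma delta T cell genes 1, Trdc, and of 5 tested B cell genes 1, Cd79b. Of 3 tested regulatory T cell genes 1 fell, Ikzf2.

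On RST day 7 against RST day 3, where Gzmc, Gzmd and Gzme rose, all 6 pan-leukocyte genes fell (median log2 fold change -0.72, against -0.05 over all genes) and 4 of 7 macrophage genes fell. Of 5 tested NK cell genes 1 rose, Itga2 (1.65 ± 0.22, edgeR adjusted p = 5.94e-06), and of 8 tested T cell genes 2 rose, Cd3e (1.83 ± 0.42) and Cd4 (1.30 ± 0.42). Of all genes, 18.7% rose and 22.5% fell in that comparison, so the NK and T cell counts are near the share over all genes. The summed NK cell genes were at 11.5 to 16.2 CPM on RST day 7 and 7.95 to 10.6 CPM on RST day 3. Itga2 is part of this sum and was the 1 gene of the 5 tested with an unadjusted p below 0.05. On RST day 14 against RST day 7, 0 of 5 NK cell genes and 0 of 8 T cell genes passed by edgeR, with 3 and 1 at an unadjusted p below 0.05, while all 10 cell cycle genes fell. Of all genes, 20.9% rose and 18% fell between these days, and 7837 of 16149 had an unadjusted p below 0.05. Of 6 pan-leukocyte genes 4 fell and 6 had an unadjusted p below 0.05, and their sum was at 86.5 to 179 CPM on RST day 14 and 171 to 251 CPM on RST day 7.

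Gzmm moved with the muscle genes. On RST day 7 all 10 mature skeletal muscle genes were lower than in LST (median log2 fold change -1.39), Tnni2 at -1.41 ± 0.17, Acta1 at -1.44 ± 0.17, Tnnt3 at -1.33 ± 0.17 and Ckm at -1.36 ± 0.19. Their sum was 60542 to 103469 CPM on RST day 7 and 203899 to 223712 CPM in LST. On RST day 14 against RST day 7 all 10 rose, as Gzmm did. Over the 24 libraries the genes most like Gzmm in log2 CPM (Pearson r, given as a description) were Lrrc20 (0.979), Xk (0.971), Mvb12b (0.970), Hfe2, which encodes hemojuvelin (0.969), and Zbtb44 (0.966). The part of the muscle share in the Gzmm values was not tested.

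**Figure D3:**
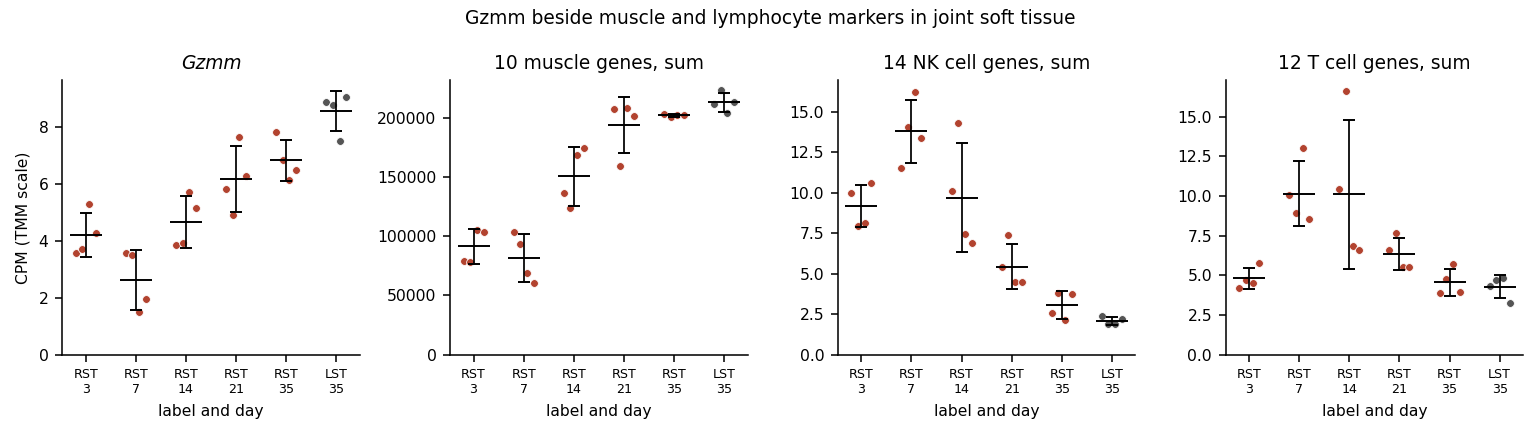
CPM on the TMM scale of Gzmm and of 3 marker lists, each summed per library (vertical axes, each with its own scale), in the 24 joint soft tissue libraries by label and day. Points are libraries, black bars the mean and SD of 4. Gzmm and the muscle sum are lowest on RST day 7 and highest in LST, while the NK cell sum has its highest mean on RST day 7.

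The genes most like Gzmd over the 24 joint libraries were Myl9 (Pearson r 0.960), which encodes a myosin light chain of smooth muscle and other contractile cells, Myh8 (0.95), a myosin heavy chain of newborn and regenerating muscle, Igsf3 (0.947), Slc5a7 (0.940), the choline transporter, and Tulp3 (0.940). Gzmd had 0 counts in 12 of these 24 libraries. For Prf1 in joint tissue the best r was 0.641 (Atl1), followed by 0.626 (Cyp4f13), 0.620 (Rgl2), 0.611 (Srek1) and 0.604 (Dnah6), from counts of 1 to 14 per library.

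In lymph nodes a different set was read. Prf1 and Gzma were the highest and Gzmd, Gzme and Gzmg had 0 counts in all 18 libraries, which allows up to 0.00613 CPM over the table. Gzmf had 1 count in each of 3 libraries. Prf1 ran from 23.6 to 33.6 CPM over the 18 libraries, Gzma from 4.57 to 22.3, Gzmm from 2.67 to 4.08, Gzmb from 1.40 to 6.37, Gzmk from 0.275 to 2.98 and Gzmc from 0.0979 to 0.499. Per length, Gzma and Prf1 lay within their spread of each other in NoImplant day 7 nodes (12.7 ± 7.21 and 12.1 ± 0.609 CPM per kb, SD, n = 3). In Implant day 7 nodes Prf1 was at 10.2 ± 0.538 and Gzma at 6.05 ± 1.48 CPM per kb.

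**Figure D4:**
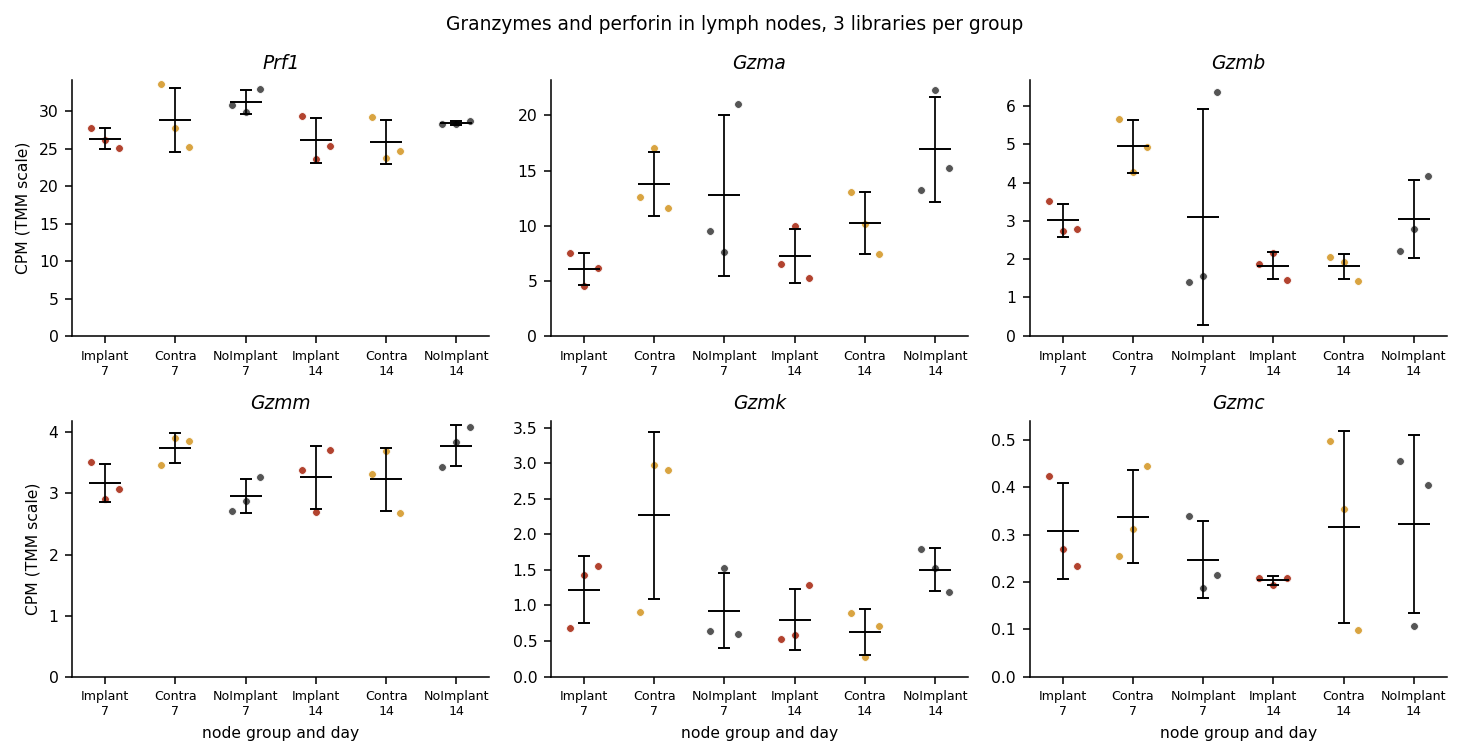
CPM on the TMM scale (vertical axis, each panel with its own scale) of 6 members in the 18 lymph node libraries, by group and day. Contra stands for ContraImplant. Points are libraries, black bars the mean and SD of 3. Gzma in Implant nodes lies below ContraImplant nodes on day 7 and below NoImplant nodes on day 7 and day 14, without overlap. The gap to NoImplant nodes on day 7 is narrow, from 7.55 to 7.66 CPM.

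No member passed in any node comparison by edgeR. Gzma came nearest. On day 14 it had 6.53, 9.95 and 5.29 CPM in Implant nodes, against 13.2, 22.3 and 15.2 CPM in NoImplant nodes. These groups do not overlap, and the log2 fold change was -1.22 ± 0.36 (edgeR adjusted p = 0.0551, while 5.97% of all genes passed). On day 7 it had 7.55, 4.57 and 6.14 CPM in Implant nodes, against 9.52, 7.66 and 21.1 CPM in NoImplant nodes, a log2 difference of -1.06 ± 0.36 (edgeR adjusted p = 0.148, 0.0437% of all genes passed). These day 7 groups do not overlap either, though the gap from 7.55 to 7.66 CPM is narrow.

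The ContraImplant nodes of the same mice had 12.6, 17.0 and 11.6 CPM of Gzma on day 7. Implant nodes were lower in 3 of 3 mice, a log2 difference of -1.17 ± 0.36 (edgeR adjusted p = 0.106, 0.715% of all genes passed). This test, like that of day 14 below, did not pair the nodes of a mouse. With a block for the mouse, edgeR called Gzma on neither day. On day 14 ContraImplant nodes had 13.1, 10.2 and 7.44 CPM. Implant nodes were again lower in 3 of 3 mice, though the 2 ranges overlap (-0.49 ± 0.36, adjusted p = 0.666, 0% of all genes passed). DESeq2 called Gzma as lower in Implant against NoImplant nodes on day 14 (adjusted p = 0.00888) and on day 7 (0.0486), and in Implant against ContraImplant nodes on day 7 (0.0198). Without NoImplant day 14 replicate 1 the edgeR adjusted p for Implant against NoImplant on day 14 was 0.0459.

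Gzmb averaged 3.02 ± 0.436 CPM in Implant day 7 nodes, 4.95 ± 0.693 in ContraImplant and 3.11 ± 2.82 in NoImplant nodes (SD, n = 3 each). Implant nodes were lower than ContraImplant nodes in 3 of 3 mice on day 7 (edgeR adjusted p = 0.344, without pairing by mouse). The NoImplant spread came from replicate 3, at 6.37 CPM against 1.40 and 1.57 in the others. The same library had the highest Gzma of the NoImplant day 7 nodes. On day 14 Gzmb averaged 1.83 ± 0.354, 1.81 ± 0.332 and 3.05 ± 1.01 CPM in the same order of groups. Its smallest node adjusted p was 0.285, for Implant against NoImplant on day 14.

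Gzmk, which is known from memory CD8 T cells, averaged 1.22 ± 0.475 CPM in Implant, 2.26 ± 1.17 in ContraImplant and 0.924 ± 0.527 in NoImplant nodes on day 7. On day 14 these were 0.798 ± 0.428, 0.628 ± 0.317 and 1.5 ± 0.303 CPM. Between ContraImplant and NoImplant nodes its log2 fold change was 1.28 ± 0.52 on day 7 and -1.23 ± 0.54 on day 14, neither past the threshold (edgeR adjusted p = 0.665 and 0.848, 0% of all genes passed on day 7 and 0% on day 14). Prf1 averaged 26.3 ± 1.39 CPM in Implant, 28.8 ± 4.31 in ContraImplant and 31.2 ± 1.57 in NoImplant nodes on day 7, and 26.1 ± 2.99, 25.9 ± 2.95 and 28.4 ± 0.221 CPM on day 14. Its log2 fold changes between node groups of the same day lay between -0.24 and 0.01, with standard errors of 0.11.

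Across days, day 14 against day 7 gave no call among the members in Implant nodes (0% of all genes passed, 0 members at an unadjusted p below 0.05) or in NoImplant nodes (0.0164%, 1 member, Gzmm). In NoImplant nodes 3456 of all 18312 genes had an unadjusted p below 0.05 between these days. The interaction of day with Implant against NoImplant (0%) and with Implant against ContraImplant (0%) gave none by edgeR, with 0 members at an unadjusted p below 0.05 in each, and DESeq2 called 0 in these 4 tests. At an unadjusted p below 0.05 stood 2 members for Implant against NoImplant on day 7, 1 on day 14, 1 for Implant against ContraImplant on day 7 and 0 on day 14, and 2 and 1 for ContraImplant against NoImplant on day 7 and day 14, where DESeq2 called 0. Among all 18312 genes, 3326, 5197, 3764, 1550, 1349 and 1062 had such a p in these comparisons, in the same order. The member counts are therefore a description only.

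Marker lists of cells that can hold granzymes were read beside Gzma in the nodes. Among all 18312 genes, 3326 had an unadjusted p below 0.05 for Implant against NoImplant nodes on day 7, and 5197 on day 14. Against ContraImplant nodes these were 3764 on day 7 and 1550 on day 14. By edgeR 5.97% of all genes passed for Implant against NoImplant nodes on day 14. On day 14, 3 of 14 NK cell genes fell against NoImplant nodes, Klra4 (-1.52 ± 0.34), Klra8 (-1.55 ± 0.41) and Itga2 (-0.49 ± 0.14, edgeR adjusted p from 0.0289 to 0.0493), and 0 rose, with a list median of -0.48 against a median near 0 over all genes. The summed list was at 277 to 488 CPM in Implant nodes and at 524 to 697 CPM in NoImplant nodes on day 14, and at 308 to 339 against 439 to 574 CPM on day 7. On day 7, 0 of 14 passed by edgeR against NoImplant and 0 of 14 against ContraImplant nodes, with 4 and 7 at an unadjusted p below 0.05, and in the second comparison Ncr1 was at -1.14 ± 0.30 (adjusted p = 0.0763). Against ContraImplant nodes on day 14, 0 of 14 passed by edgeR and 0 had an unadjusted p below 0.05, and the sums overlap, at 277 to 488 CPM in Implant nodes and 291 to 690 CPM in ContraImplant nodes. Of 12 T cell and CD8 genes 0 passed by edgeR in these 4 comparisons, with 4 at an unadjusted p below 0.05 against NoImplant nodes on day 7 and 0 in each of the others. Of 10 tested mast cell and basophil genes 1, Mcpt4, fell against NoImplant nodes on day 14 (-1.47 ± 0.39), and 9 had an unadjusted p below 0.05, with a list median of -1.08. Their list summed to 147 to 265 CPM in Implant nodes and to 299 to 529 CPM in NoImplant nodes on day 14. Against ContraImplant nodes on day 7, 0 of the 10 passed by edgeR and 6 had an unadjusted p below 0.05. The part of these cells in the Gzma values was not tested.

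Over the 18 nodes the genes most like Gzma were Ifi207 (Pearson r 0.881), Klrb1c (0.874), which encodes the NK receptor NK1.1, Gpr35 (0.867), Clec1b (0.864) and Fxyd2 (0.860). Those most like Prf1 were Arl4c (0.844), Padi2 (0.817), Cd8a (0.789), the CD8 alpha chain, Tmie (0.789) and Lrrc23 (0.785). These points share their libraries and depth, and the values describe likeness over these libraries only.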

How the data were processed

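The authors deposited raw counts per gene, whole numbers without normalisation, in 1 table for joint tissue and 1 for nodes. Per the labels' protocols, libraries were made with the NEBNext Ultra II kit from 100 ng of total RNA, taken with Trizol (joint) or RLT (nodes). Per the submitters' processing notes, fastp and STAR were used on mm10. No source used here gives the counting program, annotation, strand setting or treatment of multiply mapped reads.

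Each table was fitted once with edgeR 4.0.16 in R 4.3.3 (filterByExpr with a minimum count of 10, TMM, quasi-likelihood F test, Benjamini-Hochberg over 16149 joint or 18312 node genes, 1 coefficient per group). Log2 fold changes have standard errors from the F statistic, and log2 CPM uses a prior count of 2. The 20 comparisons were not adjusted together. No 2 replicates agreed within sampling noise (lowest chi-square per degree of freedom 8.27). The fit was tested on simulated data, with changes placed only in genes that averaged at least 20 counts per library. Gzma, Gzmb, Gzmc and Gzmd in joint tissue and Gzmc in nodes averaged less, so the simulation does not cover them.

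Implant and ContraImplant nodes of a number share a mouse, and their deviations correlated (0.106 to 0.352 on day 7, 0.179 to 0.402 on day 14). The main fit did not pair them. Members and 20 gene lists were chosen with earlier results of these data known. The 10 members were named throughout, and of each list up to 4 genes with the smallest adjusted p. The values of 1 listed gene are not reported here. Alternatives were no filter, DESeq2 1.42.0, its size factors, only the groups compared, a replicate block, summed copies and each replicate left out.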

Additional observations from a re-analysis of the deposited data

Results flagged for a closer look

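In 37 groups of 4 joint libraries the highest or lowest library was compared with the others, and 6 stood far apart. The rule flags about 1 in 20 groups of independent normal values. Low counts are not such values, and members share libraries, so that rate is no measure of chance for these 6. RST day 21 replicate 2 stood apart in 3 of the 6, with 1.05 CPM of Gzmc (others 0 to 0.0548), 0.322 CPM of Gzmd (0 to 0.0495) and 0.927 CPM of Gzme (0 to 0.0548). That library also differed in its marker sums. Pan-leukocyte genes were at 138 CPM (others 49.9 to 81.7), NK cell genes at 7.38 (4.46 to 5.43) and mature muscle genes at 159095 (202094 to 208113). The part of this in its granzyme values was not tested. RST day 7 replicate 4 had 3.67 CPM of Gzmc, against 1.49 to 1.84 in the others. LST day 35 replicate 3 had 7.53 CPM of Gzmm, against 8.79 to 9.05. RST day 3 replicate 4 had 0.415 CPM of Prf1 from 11 counts, against 0.0928 to 0.128.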

How the results depend on the processing

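Of 564 values of single members and comparisons under the alternatives, 515 kept direction and call, 27 lost the call, 22 gained one and 0 reversed. Without a filter on low counts 2 members passed for RST day 35 against day 21 and 1, Gzma, for Implant against NoImplant nodes on day 14. Gzme also gained a call for RST day 21 against LST (adjusted p = 0.023). With only the groups compared, 1 passed for RST day 3, 1 for RST day 14 and 1 for RST day 21 against LST, where Gzmm was the 1 member left to test. Under that fit Gzmm lost its call for RST day 7 against RST day 3 (adjusted p = 0.0682). DESeq2 called 5 for RST day 21 against LST, 2 for RST day 35 against day 21, and Gzma in 3 node comparisons, 1 each for Implant against NoImplant on day 7 and on day 14 and Implant against ContraImplant on day 7. Leaving out single replicates gave 0 to 5 for RST day 21 against LST, 0 to 2 for RST day 21 against day 14, 0 to 1 for RST day 35 against day 21, 3 to 5 for RST day 7 against RST day 3 and 0 to 1 for Implant against NoImplant on day 14. With a replicate block, Implant against NoImplant on day 14 had 1 call (Gzma, adjusted p = 0.0482) and Gzmc in RST day 21 against LST lost its call (adjusted p = 0.0538). In both the groups share a number only, and the block changed no other call, the pairs of the same mouse included. Scaled by the total count, 68 of 73 group means moved by less than 1 SD. Counts of Prf1, Gzmf, Gzmg and Gzmk in joint tissue were too low to test.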
